A study of Mus musculus with 4 samples.

Results

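Osteopontin, the product of Spp1 (chr5:104435111-104441053, plus strand, GRCm38), and 9 genes for its receptors were followed through single cells of mouse hindlimb muscle. The receptor genes were Cd44, the alpha integrin subunits Itgav, Itga4, Itga5, Itga8 and Itga9, and the beta subunits Itgb1, Itgb3 and Itgb5. They were taken by symbol, and all 10 were present among the 32285 genes measured. The questions were which cells carried Spp1 transcripts, which carried the receptors, and what went with Spp1 in single myelinating Schwann cells.

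The tissue was tibialis anterior and gastrocnemius muscle of male mice at 2 months of age. All mice carried the reporter S100GFP-tg, a GFP transgene under the S100B promoter, which is active in Schwann cells and also in other cells of muscle. The WT group was S100GFPtg with both copies of Sod1 intact, and the Sod1KO group was S100GFPtg Sod1-/-, a line without the CuZn superoxide dismutase in which nerve terminals detach from muscle. Tissue of 4 mice was pooled for each genotype, live cells were sorted into GFP+ and GFP- fractions, and each fraction gave 1 droplet library of 3' transcript ends. There are thus 4 libraries and no replicates, so no test across animals was possible, and a difference between libraries cannot be told apart from a difference between pools or preparations.

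The libraries held 5498 (WT GFP+), 7267 (Sod1KO GFP+), 2052 (WT GFP-) and 6598 (Sod1KO GFP-) barcodes, with medians of 10554.5, 12062, 6152.5 and 13825.5 unique molecular identifiers (UMIs, 1 per captured transcript). Any pair of libraries shared between 1 and 13 barcodes. Sod1 itself was at 90.9 CPM (UMIs of a gene per 1000000 UMIs) in WT GFP+ and 98.3 in Sod1KO GFP+, and at 123 and 113 in the GFP- libraries, so it was not lower throughout the Sod1KO libraries. Where the deletion lies was not given in the sources used here, so 3' ends may not check it, and the genotype below is that of the label. After filters on quality and doublets, 17263 cells were left, in 13 classes named from marker genes and in unnamed clusters. Myelinating Schwann cells (mSC-like, 12 of 12 markers) numbered 1071 in WT GFP+ and 658 in Sod1KO GFP+, but 4 and 3 in the GFP- libraries. Terminal or other nonmyelinating Schwann cells (tSC-like) numbered 387 and 884 in the GFP+ libraries. All levels are CPM of the summed cells of a class, with 95% Poisson intervals that cover counting error only. Orders of classes and clusters are among those with at least 50 cells in a library unless a smaller one is named.

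Osteopontin is a secreted, acidic glycoprotein of bone, activated macrophages and injured tissue. It binds integrins through an arginine-glycine-aspartate (RGD) motif, which the pairs of Itgav with Itgb1, Itgb3 or Itgb5, of Itga5 with Itgb1 and of Itga8 with Itgb1 recognise. A stretch next to the motif, exposed when proteases such as thrombin cut the protein, is bound by Itga4 or Itga9 with Itgb1. CD44, the main hyaluronan receptor, is a further osteopontin receptor in some splice forms, which 3' ends cannot tell apart. In nerve, osteopontin is known as a product of Schwann cells and macrophages after injury.

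The motif is shown at the level of codons, because most of the ligands described further on hold the same 3 residues. Tnc and Vcam1, which are on the same list, hold no RGD motif. Each line gives the coding strand, 5' to 3', from the GENCODE vM39 transcript on GRCm39, with the RGD codons in capitals and 21 bases on each side.

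Spp1 (residues 145 to 147 of 295, chr5:104587347-104587355, plus strand, exon 7): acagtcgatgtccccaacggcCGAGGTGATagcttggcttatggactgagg
Ibsp (residues 293 to 295 of 324, chr5:104458341-104458349, plus strand, exon 7): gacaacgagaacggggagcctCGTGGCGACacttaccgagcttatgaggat
Fn1 (residues 1614 to 1616 of 2477, chr1:71645905-71645913, minus strand, exon 30): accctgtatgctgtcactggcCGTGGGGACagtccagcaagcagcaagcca
Vtn (residues 64 to 66 of 483, chr11:78390532-78390540, plus strand, exon 3): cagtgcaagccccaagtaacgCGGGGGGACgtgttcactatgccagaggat
Mfge8 (residues 87 to 89 of 463, chr7:78795056-78795064, minus strand, exon 3): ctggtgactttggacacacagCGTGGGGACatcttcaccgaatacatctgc
Edil3 (residues 138 to 140 of 522, chr13:89190610-89190618, plus strand, exon 5): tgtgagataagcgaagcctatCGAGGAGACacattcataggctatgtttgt

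Spp1 had 1 RGD motif, followed directly by the stretch that Itga4 and Itga9 pairs bind. That stretch was searched only in osteopontin's own form, so its absence from the other sequences shows nothing of how these pairs bind them.

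Spp1 was a transcript of few cells. Over all kept cells it stood at 72.4 CPM in WT GFP+ and 88.4 in Sod1KO GFP+, but at 3.95 and 5.32 in the GFP- libraries. In both GFP+ libraries mSC-like cells had the highest level among the classes with at least 50 cells. It was 376 CPM (362 to 391, 2651 UMIs) in WT and 915 CPM (887 to 944, 4040 UMIs) in Sod1KO. In WT the interval of macrophage-like cells, at 375 CPM (351 to 400), met that of mSC-like cells, whereas in Sod1KO macrophage-like cells were at 151 CPM (138 to 166), below clusters 16 and 17. The mSC-like cells held 51.3% (49.9% to 52.7%, Clopper-Pearson) of all Spp1 UMIs of WT GFP+ and 51.0% (49.9% to 52.2%) of those of Sod1KO GFP+. Under a stricter cell filter (over 500 genes and under 5% mitochondrial UMIs), cells were clustered and named anew. The mSC-like class then numbered 524 and 173 cells, and its shares were 38.2% and 20.9%.

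**Figure D1:**
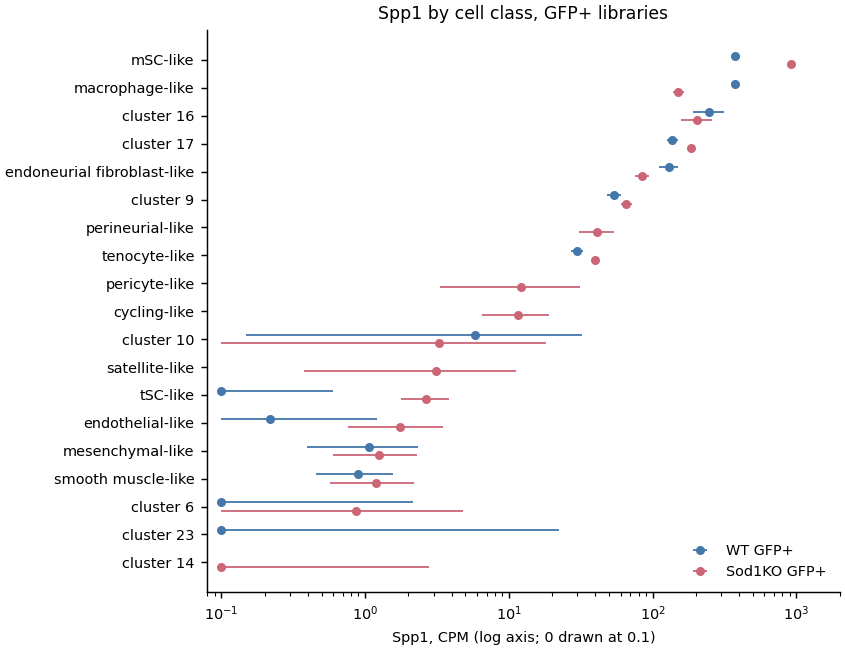
Spp1 level in CPM (log axis, values of 0 drawn at 0.1) for each class or unnamed cluster with at least 50 cells in the WT GFP+ (blue) and Sod1KO GFP+ (red) libraries; bars are 95% Poisson intervals that cover counting error only. The mSC-like cells sit at the top in both libraries, at 376 and 915 CPM, and tSC-like cells lie near the bottom, at 0 and 2.67 CPM.

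Within the myelinating class the transcript was concentrated in a minority of cells. Each cell was thinned to 1000 UMIs to set depth aside, after which 15.98% (13.8% to 18.3%) of mSC-like cells in WT and 27.8% (24.4% to 31.4%) in Sod1KO had a Spp1 UMI. Without thinning 36.9% and 52.7% did, the median cell holding 6224 and 6118 UMIs. The 41 cells with the most Spp1 of 1071 in WT, and 35 of 658 in Sod1KO, together held at least 50% of the class's Spp1 UMIs. The top cell of each held 170 and 312 UMIs. Endothelial-like cells, which should lack the gene, had a thinned Spp1 UMI in 0 of 304 and 1 of 302 cells, at median depths of 11412.5 and 11404.5.

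Other sources were smaller or rested on very few cells. Macrophage-like cells are the known source of osteopontin in inflamed tissue, but of their 922 UMIs in WT GFP+ 1 cell held 573, or 62.2%. In Sod1KO GFP+, 3 of 213 cells held at least 50% of 485 UMIs. Cluster 17 reached 138 CPM (126 to 150) and 185 CPM (175 to 195). It was left unnamed because a satellite cell marker stood among its leading genes, which were Col22a1, Shisal2b and Ptx4. Endoneurial fibroblast-like cells, the stromal cells between axons, were at 130 CPM (111 to 151) and 84.2 CPM (75.2 to 94.1). Cluster 9, unnamed because it held all myelin markers but had perineurial genes in the lead, was at 53.8 CPM (48.1 to 59.9) and 65.9 CPM (60.1 to 72.0). Tenocyte-like cells were at 29.9 CPM (27.2 to 32.8) and 40.1, and 5 of 503 of them held at least 50% of their UMIs in WT. Cluster 16, led by muscle fibre genes such as Ckm and Acta1, was at 248 and 203 CPM, from only 68 and 66 UMIs.

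Among GFP- cells of Sod1KO the perineurial-like class, which forms the sheath of nerve fascicles, carried most Spp1. In Sod1KO GFP- it held 313 of 437 UMIs, or 71.6% (67.2% to 75.8%), at 139 CPM (124 to 156). Those UMIs were spread over more cells than in macrophages, with 11 of 109 cells holding at least 50%. In the GFP+ sort of the same pool the class was lower, at 41.3 CPM (30.9 to 54.2) from 90 cells, of which 1 held 55.8% of the UMIs. WT GFP- had only 6 perineurial-like cells and 79 Spp1 UMIs in all, of which 33 were in those 6 cells and 34 in its 4 mSC-like cells.

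The transcript was all but missing from tSC-like cells. No Spp1 UMI was found in the 387 cells of WT GFP+, which allows up to 0.595 CPM, and 29 UMIs in 12 of 884 cells gave 2.67 CPM (1.79 to 3.84) in Sod1KO GFP+. That is close to endothelial-like cells (0.217 and 1.76 CPM), mesenchymal-like cells (1.07 and 1.26) and smooth muscle-like cells (0.890 and 1.19).

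Across the 33 pairs of a named class and a library with at least 50 cells, the genes whose level was most like that of Spp1 were Ank (Pearson r = 0.78 of log2(CPM + 1)), Syngr1 (0.76), Klrb1a (0.74), Rnf149 (0.73) and Gm16152 (0.73), out of 17289 genes. The first 3 were highest in mSC-like cells, Rnf149 in macrophage-like and Gm16152 in perineurial-like cells. Gm16152 was low throughout, at most at 7.57 CPM. Ank encodes a pyrophosphate transporter known from mineralising tissue. Of the receptors Itgav was nearest (0.32) and Itgb1 farthest (−0.47). These pairs share libraries, and no test was made.

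Cd44 had another order of classes. Its 2 highest classes in the GFP+ libraries were macrophage-like cells, at 674 CPM (642 to 708) in WT and 672 (643 to 701) in Sod1KO, and tSC-like cells, at 371 CPM (356 to 386) and 400 (388 to 412). After thinning to 1000 UMIs, 42.3% and 31.1% of macrophage-like and 25.6% and 27.9% of tSC-like cells had a Cd44 UMI. The tSC-like cells held 31.5% and 34.9% of all Cd44 UMIs of their libraries. In mSC-like cells Cd44 was the lowest of all ranked classes, at 5.82 CPM (4.18 to 7.90, 41 UMIs) in WT and 17.7 CPM (14.0 to 22.1, 78 UMIs) in Sod1KO. The Sod1KO interval met those of smooth muscle-like cells (19.9 to 26.5), cluster 10 (7.20 to 42.7) and cluster 14 (18.3 to 36.6).

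Between these ends came cluster 17 (207 and 196 CPM), mesenchymal-like cells (114 and 116), endothelial-like cells (49.2 and 74.1) and tenocyte-like cells (62.7 in WT). Lymphatic endothelial-like cells of Sod1KO GFP- were near 0, with 2 UMIs and 1.05 CPM. Over the same 33 pairs the genes most like Cd44 were Cdk14 (r = 0.79), Mab21l3 (0.77), Sdf2l1 (0.77), Sh3kbp1 (0.76) and Slc15a4 (0.76), and the r of Cd44 with Spp1 was −0.09. Mab21l3 was low throughout, at most at 9.18 CPM.

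Because macrophages are rich in Cd44, their markers were read in the Schwann classes. The 10 macrophage genes summed to 4695 CPM in tSC-like cells of WT and 460 in Sod1KO, against 19994 and 16075 in macrophage-like cells. Lysozyme (Lyz2) made up 4675 and 427 CPM of that, while Cd68, C1qa, C1qb, C1qc, Adgre1, Mrc1, Csf1r and Fcgr3 each stood between 0 and 2.67 CPM, and Cx3cr1 at 14.2 and 24.4. The part of macrophage RNA in the Cd44 of tSC-like cells was not tested. In mSC-like cells the list summed to 17.5 and 17.7 CPM.

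The Schwann classes were then set against each other. Of 9 members with at least 50 UMIs over both classes in WT, 5 were at least 2-fold higher in tSC-like than in mSC-like cells and 2 were at least 2-fold lower, where 18.7% and 10.8% of all genes were. In Sod1KO the counts were 5 and 2 of 10, against 17.9% and 9.29% of all genes. The classes were built without the member genes among the clustering genes, but from the same cells.

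The log2 ratio of Spp1, tSC-like over mSC-like, was −9.60 in WT with the count of 0 set to 3 UMIs (interval up to −9.30). In Sod1KO it was −8.42 (−9.00 to −7.90). Cd44 was higher by 5.99 (5.55 to 6.48) and 4.50 (4.18 to 4.84). Itgb3, the partner of Itgav in the vitronectin receptor, was higher by 4.14 and 4.59, from 14 and 9 UMIs in mSC-like cells. Itga5 (4.88 and 4.06), Itga8 (3.30 and 6.24) and Itga4 (2.32 and 3.91) were likewise higher, each from 13 or fewer UMIs in mSC-like cells. Itgb5 went the other way, at −1.38 and −1.55. Itgav and Itgb1 lay within 2-fold, at 0.23 and 0.49 in WT and 0.28 and 0.40 in Sod1KO. Itga9 had 19 and 23 UMIs in WT, too few for the count, and a log2 ratio of 0.99 (−0.06 to 2.21) in Sod1KO. An assumed 5% of each class's UMIs, spread as in the library's mean profile, was also subtracted as free RNA. The Cd44 ratio was then 8.99 in WT and 5.20 in Sod1KO, and the 5% was not measured.

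**Figure D2:**
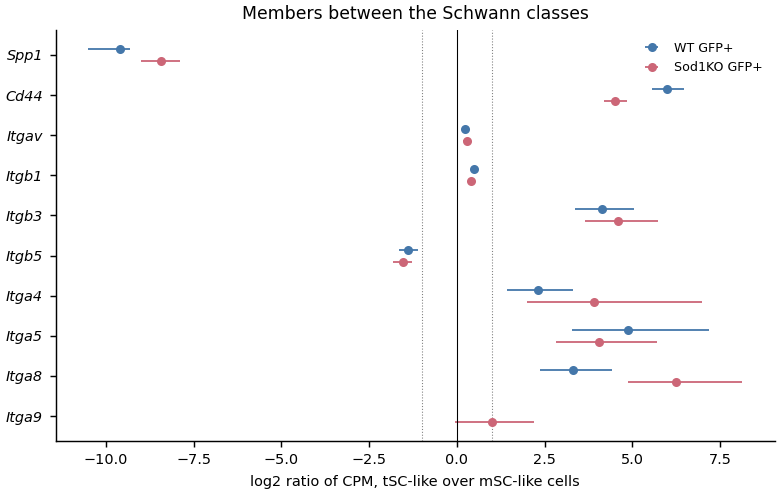
Log2 ratio of CPM in tSC-like over mSC-like cells for each member, WT GFP+ (blue) and Sod1KO GFP+ (red); bars are 95% conditional binomial intervals for counting error, and dotted lines mark a 2-fold difference. Spp1 lies far to the left, with the WT count of 0 set to 3 UMIs, Cd44 and Itgb3 lie to the right in both libraries, and Itgav and Itgb1 lie near 0.

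The alpha subunit Itgav, which pairs with Itgb1, Itgb3 or Itgb5 in some of the RGD receptors, was highest in both Schwann classes among GFP+ cells. It stood at 262 CPM (250 to 276) and 293 CPM (283 to 304) in tSC-like cells and at 224 (213 to 235) and 242 (227 to 256) in mSC-like cells. Mesenchymal-like (116 and 113), macrophage-like (99.2 and 163) and endothelial-like cells (31.5 and 29.0) had less. In the GFP- cells of Sod1KO the lymphatic endothelial-like class was at 442 CPM (412 to 473), above every other class of that library.

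Itgb1, the common beta subunit, was found in every class. Smooth muscle-like cells were highest at 1217 CPM (70.6% of thinned cells) in WT and 1057 in Sod1KO, tSC-like cells reached 728 and 651, and mSC-like cells 519 and 494. The lowest ranked GFP+ levels were 304 CPM in WT and 203 in Sod1KO, both in unnamed clusters.

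Itgb3 was sparse everywhere. Its highest GFP+ level was in tSC-like cells, 35.2 CPM (30.7 to 40.2) in WT and 49.0 (44.9 to 53.3) in Sod1KO, which held 34.1% and 43.5% of the Itgb3 UMIs of their libraries. Mesenchymal-like cells followed in WT at 23.9 CPM (20.0 to 28.3), and lymphatic endothelial-like cells had 46.5 CPM (37.4 to 57.3) in Sod1KO GFP-. Levels were 1.99 and 2.04 CPM in mSC-like, 0 and 1.56 in macrophage-like and 0.462 and 0.590 in tenocyte-like cells.

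Itgb5 was highest in stromal and mural classes. Tenocyte-like cells had 168 CPM (161 to 174) and 172 (166 to 177), mesenchymal-like cells 116 and 124, and the pericyte-like cells of Sod1KO 187 (143 to 240). Of the Schwann classes mSC-like cells carried more, 63.9 CPM (58.1 to 70.1) and 62.3 (55.2 to 70.1), against 24.5 (20.8 to 28.7) and 21.3 (18.6 to 24.2) in tSC-like cells.

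**Figure D3:**
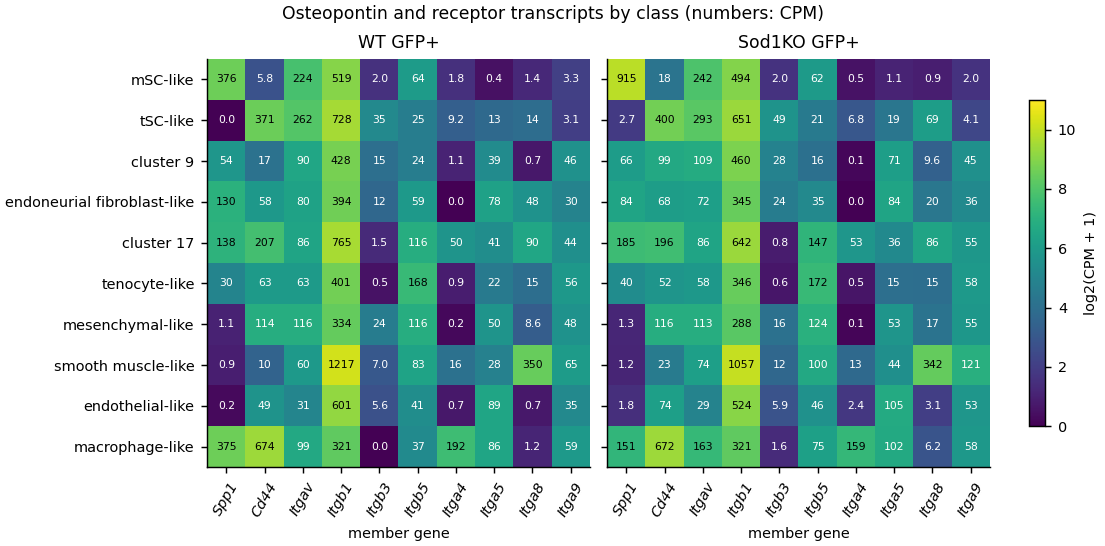
Level of each member in the classes and clusters shared by the WT GFP+ (left) and Sod1KO GFP+ (right) libraries; colour is log2(CPM + 1) and the printed number is CPM. Spp1 is bright in the mSC-like row and dark in the tSC-like row, Cd44 shows the opposite order, and colours of different genes are not a comparison of protein or of receptor number.

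The alpha subunits for the stretch beside the RGD motif were low in both Schwann classes. Itga4, known from leukocytes, was at 192 CPM (175 to 210) and 159 (146 to 174) in macrophage-like cells and at 50.2 and 53.2 in cluster 17, while mSC-like cells had 13 and 2 UMIs and tSC-like cells 57 and 74. Itga9 was at 624 CPM (589 to 661) in lymphatic endothelial-like cells of Sod1KO GFP-, where lymphatic valves are known to need it, and 45.2% of thinned cells had a UMI. Perineurial-like cells of that library followed at 114 CPM (101 to 129). In the GFP+ libraries smooth muscle-like cells were highest among classes of at least 50 cells, at 64.7 (60.4 to 69.1) and 121 (114 to 129). In WT that interval met the one of macrophage-like cells, at 59.3 CPM (50.1 to 69.8), and in Sod1KO the one of pericyte-like cells, at 82.6 CPM (54.4 to 120). Smaller classes reached more: lymphatic endothelial-like cells had 737 CPM (511 to 1030) from 5 cells in WT GFP+ and 470 CPM (364 to 596) from 8 cells in Sod1KO GFP+. Both Schwann classes had between 2.04 and 4.05 CPM of Itga9.

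Itga5, the fibronectin receptor subunit, was led by endothelial-like cells (88.7 and 105 CPM) among classes of at least 50 cells. Their intervals met those of macrophage-like cells (86.2 and 102). The 5 and 8 lymphatic endothelial-like cells of the GFP+ libraries had 217 CPM (104 to 399) and 147 CPM (91.1 to 225). In mSC-like cells Itga5 was at 0.426 and 1.13 CPM from 3 and 5 UMIs, and in tSC-like cells at 12.6 and 18.9 CPM. Itga8, known from contractile cells and from kidney development, was led by smooth muscle-like cells at 350 CPM (340 to 360) and 342 (329 to 354), with the GFP- cells of Sod1KO at 354 (336 to 373).

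Receptors act as pairs, so single cells were thinned to 2000 UMIs and counted where both partners had a UMI. Itgav with Itgb1 was found in 27.5% (23.1% to 32.3%) and 28.4% (25.4% to 31.5%) of tSC-like and in 18.5% (16.2% to 21.0%) and 18.3% (15.4% to 21.4%) of mSC-like cells. Cd44 and Itgav are separate receptors rather than partners, and both had a UMI in 19.9% (16.01% to 24.3%) and 18.7% (16.2% to 21.4%) of tSC-like and in 0.376% (0.102% to 0.959%) and 1.07% (0.433% to 2.20%) of mSC-like cells. Itgav with Itgb3 reached 3.40% and 4.44% of tSC-like cells, and Itgav with Itgb5 reached 4.32% of mSC-like cells in WT.

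Outside the Schwann classes other pairs stood out. Itga8 with Itgb1 was found in 42.0% and 39.5% of smooth muscle-like cells, Itga4 with Itgb1 in 10.3% of macrophage-like cells in WT, and Itga9 with Itgb1 in 26.5% (18.2% to 36.1%) of lymphatic endothelial-like cells of Sod1KO GFP-. Itga5 with Itgb1 was found in 11.2% and 10.6% of endothelial-like cells. A cell without both UMIs at this depth may still express both genes.

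Between the genotypes most levels of the members lay within 2-fold, as did those of most genes. In the GFP+ libraries 90 pairs of a member and a class or cluster, over 13 classes or clusters, had at least 50 UMIs. Of these, 8 were at least 2-fold higher and 3 at least 2-fold lower in the library labelled Sod1KO, and 79 lay within 2-fold. Over all genes of a class or cluster, between 0.805% and 4.9% were higher and between 0.492% and 5.54% lower.

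The mSC-like cells were the class in which both Spp1 and Cd44 differed. Of 5 members past the filter 2 were at least 2-fold higher, where 0.805% of all genes were higher and 0.853% lower. The log2 ratio was 1.28 (1.21 to 1.35) for Spp1 and 1.60 (1.04 to 2.18) for Cd44. Itgav (224 against 242 CPM), Itgb1 (519 against 494) and Itgb5 (63.9 against 62.3) lay within 2-fold. Under the stricter cell filter the Spp1 ratio was 0.98 (0.87 to 1.10), just short of 2-fold, with 438 and 867 CPM. Cd44 in these cells rests on 41 and 78 UMIs. After subtraction of the assumed 5% of free RNA it was at 0.753 and 11.3 CPM.

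In tSC-like cells 1 of 9 members was at least 2-fold higher and 0 lower, where 4.18% and 4.83% of all genes were. That member was Itga8, at 14.0 CPM (87 UMIs) in WT and 68.6 CPM (745 UMIs) in Sod1KO, a log2 ratio of 2.29 (1.97 to 2.63). The class was made up differently in the libraries: cluster 8, led by Ucn2, Olig1 and Btc, gave 57 and 577 of its cells, and cluster 12, led by Bche, Unc80 and Slitrk3, gave 317 and 219. Within cluster 12 alone the Itga8 ratio was 2.45 (2.10 to 2.82), from 15.3 to 83.7 CPM, and in cluster 8 its level was 0 and 63.8 CPM. Cd44 was within 2-fold in the class, but it was 183 against 401 CPM in cluster 8 (1.13, 0.82 to 1.46) and 383 against 342 CPM in cluster 12 (−0.16, −0.27 to −0.06). The difference between the clusters was not tested.

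Macrophage-like cells had 1 of 8 members higher and 1 lower, where 3.16% and 1.09% of all genes were. Itgb5 was higher (37.0 and 75.0 CPM, log2 1.02, 0.66 to 1.38), a call that held in 5 of 7 other settings. The setting without doublet removal is not among these, because no cells were named macrophage-like there. Spp1 was lower, with a log2 ratio of −1.31 (−1.47 to −1.15), but this value hung on the single WT cell with 573 UMIs. Without the top cell of each library it was −0.32, and without the 1% of cells with the most Spp1 it was 0.44. The share of thinned cells with a Spp1 UMI, 3.85% and 7.55%, went against the level, so no order is read from it.

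In the other classes the calls were few. Endoneurial fibroblast-like cells had Itgb3 higher (11.7 and 23.6 CPM, log2 1.01, 0.21 to 1.91) and Itga8 lower (48.4 and 19.6 CPM, −1.31, −1.81 to −0.79) of 9 members, against 3.88% and 2.88% of all genes. The Itgb3 call held in 3 of 7 other settings and the Itga8 call in 7 of 7. The stricter cell filter is not among these settings, because no cells were named endoneurial fibroblast-like under it. Smooth muscle-like cells had Cd44 higher (10.4 and 23.0 CPM, log2 1.15, 0.83 to 1.47) of 9, against 2.41% of all genes higher and 0.492% lower. Cluster 9 had Cd44 (16.95 and 99.2 CPM, 2.55, 2.25 to 2.86) and Itga8 (4 and 71 UMIs, 3.89, 2.47 to 5.80) higher of 9, against 4.9% of genes higher and 2.28% lower. Cluster 6, which mixed pericyte and endothelial markers, had Itga9 lower (46 and 15 UMIs) of 6, against 1.03% of genes lower and 0.87% higher. No member passed 2-fold among 7 in endothelial-like, 8 in mesenchymal-like and 8 in tenocyte-like cells, where 1.54%, 1.53% and 1.71% of genes were higher and 0.646%, 0.8% and 0.682% lower. The same held for 9 members in cluster 17 (1.21% of genes higher, 0.873% lower), for 1 in cluster 10, led by fat cell genes (4.06% and 4.48%), and for 2 in cluster 16 (3.06% and 5.54%).

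In the GFP- libraries, where WT GFP- was the shallowest, 32 pairs in 6 classes or clusters could be compared. Mesenchymal-like cells had Itgav (63.8 and 134 CPM, log2 1.08, 0.81 to 1.35) and Itga9 (35.3 and 74.1 CPM, 1.07, 0.71 to 1.45) higher among 8 members, against 9.13% of all genes higher and 7.33% lower. The class was made up differently in these libraries. Cluster 27 gave 148 of its 190 WT cells but 2 of its 767 Sod1KO cells, and cluster 5 gave 33 and 553. The comparison is thus also one between clusters, and their part in these calls was not tested. In cluster 16 Itgb1 was lower, the only member past the filter there, against 28.8% of all genes lower and 19.4% higher. No member passed 2-fold among 7 in endothelial-like cells (4.43% of genes higher, 1.19% lower), 7 in pericyte-like cells (2.69% and 1.21%), 7 in cluster 6 (3.81% and 0.546%) and 2 in cluster 10 (1.89% and 9.59%).

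**Figure D4:**
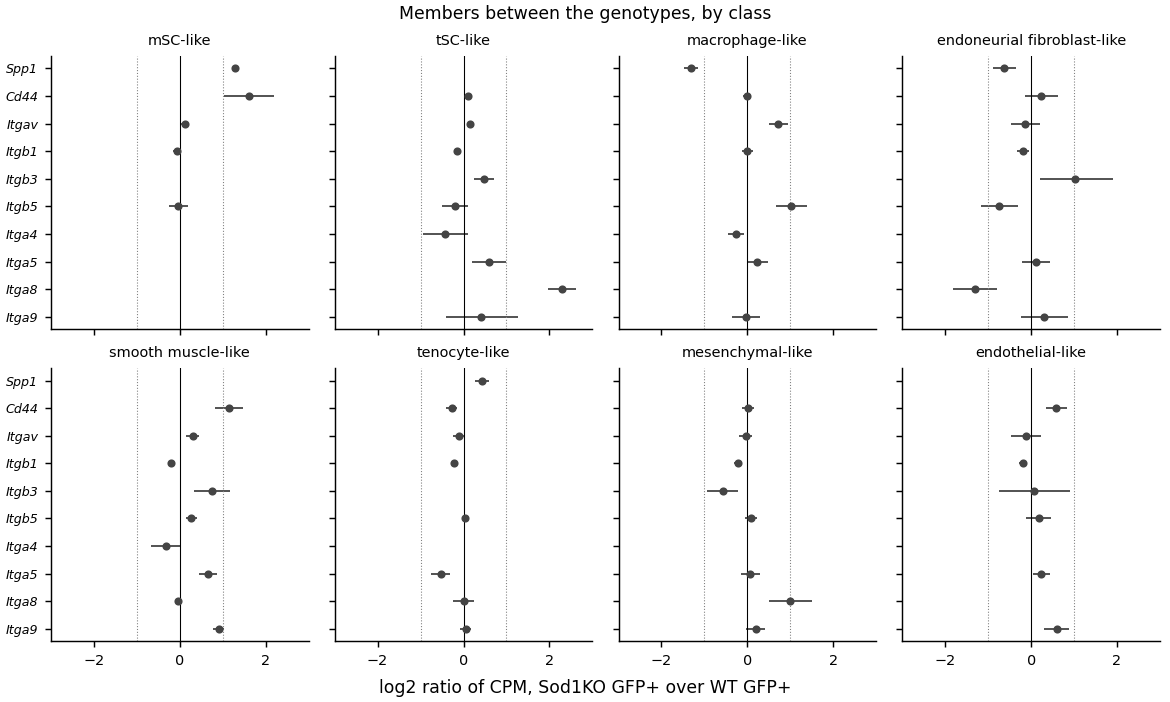
Log2 ratio of CPM, Sod1KO GFP+ over WT GFP+, for each member with at least 50 UMIs over both libraries, in 8 named classes; bars are 95% conditional binomial intervals for counting error and dotted lines mark 2-fold. Spp1 and Cd44 lie to the right in mSC-like cells, Itga8 lies to the right in tSC-like and to the left in endoneurial fibroblast-like cells, and most other points lie between the dotted lines.

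To see what went with Spp1 in single myelinating cells, mSC-like cells were thinned to 2000 UMIs. Of 1065 cells in WT 257 had a Spp1 UMI and 84 had 3 or more, and of 652 in Sod1KO 243 and 121 did. The cells with Spp1 had been somewhat deeper before thinning, with medians of 6812 against 6143.5 UMIs in WT and 6673 against 5881 in Sod1KO. Correlations over cells were weak, so the levels in cells with and without a Spp1 UMI are given. The genes were ranked by the smaller of the r of the 2 libraries, which is a choice made on these cells, and the values are a description.

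The 10 genes of highest r were C1ql3, Sparc, Mfap5, Cntf, Fgl2, Tppp3, Apod, Igfbp5, Sncg and Fth1, with r between 0.16 and 0.23 in WT and between 0.16 and 0.35 in Sod1KO. C1ql3, a secreted C1q-like protein, was at 210 CPM in cells with Spp1 and 82.3 CPM in those without in WT, and at 218 and 70.9 CPM in Sod1KO. Fgl2, a secreted fibrinogen-like protein, was at 115 and 37.1 CPM in WT and at 169 and 26.9 CPM in Sod1KO. Mfap5, a protein of elastic microfibrils, was at 288 and 83.5 CPM in WT and at 286 and 130 CPM in Sod1KO. The log2 ratios were 1.35 and 1.62 for C1ql3, 1.63 and 2.65 for Fgl2, and 1.79 and 1.14 for Mfap5.

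More abundant genes moved less. Sparc, a matricellular protein that binds collagen, was at 4311 against 2873 CPM in WT and 3837 against 2924 in Sod1KO. Cntf, the ciliary neurotrophic factor of myelinating Schwann cells, was at 654 against 379 CPM and 595 against 278 CPM. Igfbp5 was at 1584 against 1076 and 1809 against 864 CPM, and Apod, a lipid carrier of nerve repair, at 1125 against 708 and 868 against 413 CPM. Of the 10, C1ql3 and Cntf were highest in mSC-like cells among all ranked GFP+ classes. Sparc (tenocyte-like), Apod (endoneurial fibroblast-like), Mfap5 (mesenchymal-like), Sncg (smooth muscle-like) and Fgl2 (tSC-like) were highest elsewhere in both libraries.

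Among the genes of lowest r were Nfib, Gjc3 and Malat1. Nfib, a transcription factor, was at 716 CPM in cells with Spp1 and 1079 in those without in WT, and at 1123 and 1359 in Sod1KO. Gjc3, a gap junction protein of glia, was at 747 and 913 CPM in WT and at 749 and 935 CPM in Sod1KO. Malat1, a nuclear noncoding RNA, differed least, with log2 ratios of −0.07 and −0.10.

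**Figure D5:**
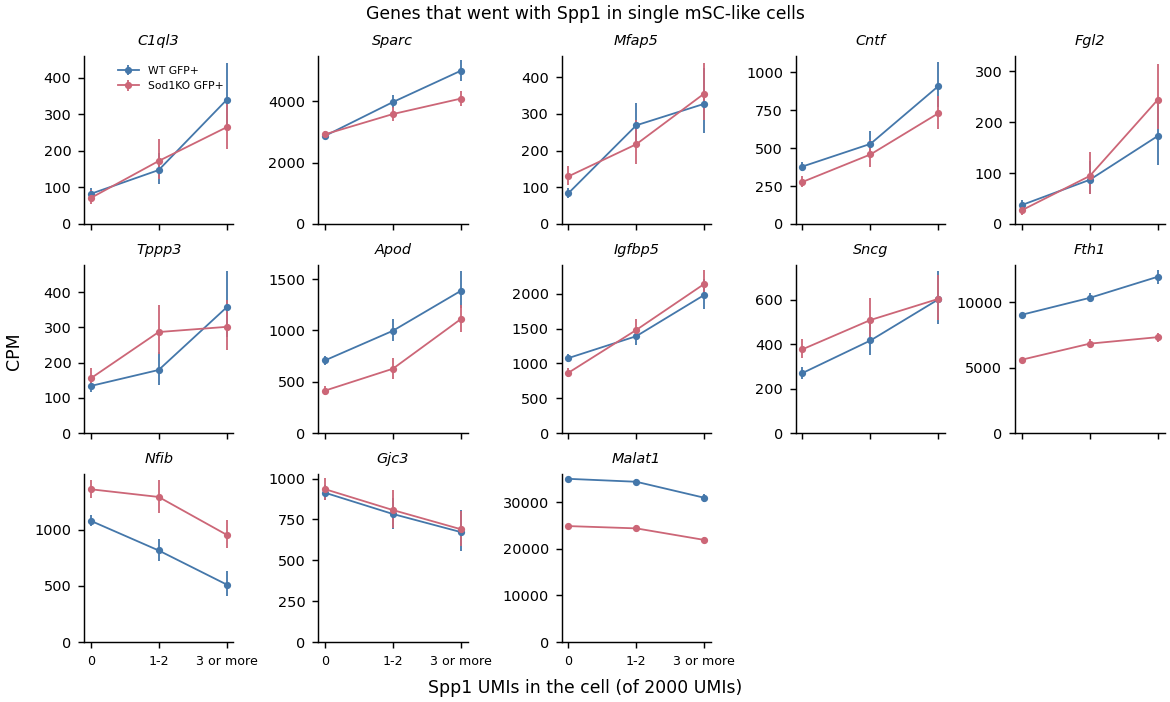
Level in CPM (linear axes from 0) of genes of high (upper rows) and low (bottom row) correlation with Spp1 in mSC-like cells with 0, 1 to 2, or 3 or more Spp1 UMIs after thinning to 2000 UMIs, WT GFP+ (blue) and Sod1KO GFP+ (red); bars are 95% Poisson intervals for counting error. The genes of the upper rows were higher in the cells with 3 or more Spp1 UMIs than in those with 0, and those of the bottom row were lower; the genes were picked for this on the same cells.

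Only some of the receptors could be read in this split. Itgav, Itgb1 and Itgb5 had enough UMIs, and their r lay between −0.07 and 0.07 in both libraries. None was at least 2-fold higher or lower in cells with Spp1, where 0.327% of all genes were higher and 1.69% lower in WT, and 0.497% and 0.711% in Sod1KO. Itgav was at 241 against 214 CPM in WT and 272 against 237 in Sod1KO, Itgb1 at 440 against 507 and 432 against 510, and Itgb5 at 97.3 against 61.9 and 72.0 against 48.9. In both libraries the values of Itgav and Itgb5 were higher in cells with Spp1, and that of Itgb1 was lower. No interval is given for these differences, so no order is read from them. Cd44 had 1 UMI in cells with Spp1 and 5 in those without in WT, and 6 and 16 in Sod1KO.

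No myelin gene differed by 2-fold between cells with and without Spp1. All 15 of 15 passed the filter, with a median log2 ratio of 0.06 in WT and −0.03 in Sod1KO, against −0.04 and −0.03 over all genes. Drp2, a scaffold of the myelin sheath, was farthest up at 0.30 and 0.46. Of 14 injury-type genes of Schwann cells only 3 could be read, Jun, Sox2 and Atf3, and 0 differed by 2-fold. The same held for 7 of 14 phagocyte and lysosome genes and 7 of 9 stress and immediate early genes. Few of all genes passed 2-fold in this split either, at the shares given above for it.

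Markers of other cells were read in the same split. The macrophage list was at 13.6 CPM in cells with Spp1 and 21.0 in those without in WT, and at 14.4 and 20.8 in Sod1KO. The tenocyte list was at 68.1 and 54.5 CPM, and at 109 and 105. The mesenchymal list was level in WT (62.3 and 63.1 CPM) but higher in cells with Spp1 in Sod1KO, at 113 against 64.8 CPM (log2 0.80, 0.23 to 1.38). Its part in Mfap5, Sparc and Igfbp5 there was not tested. In whole mSC-like cells, the libraries differed in these genes by log2 ratios from −0.66 (Fth1) to 0.65 (Fgl2).

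The wider pathway was read from lists of genes. The nearest relatives of osteopontin, Ibsp, Dmp1, Dspp and Mepe, were nearly missing. In the GFP+ libraries Ibsp was at most at 21.9 CPM, from 6 UMIs in cluster 16 of WT, and Dmp1 at most at 3.12 CPM, in endoneurial fibroblast-like cells of WT, while Mepe had 0. The other ligands of the list were highest in different classes. Fn1, fibronectin, was at 3746 and 3622 CPM in cluster 17, Mfge8 at 1401 and 1179 CPM in smooth muscle-like cells, and Fbn1 at 1668 and 1408 CPM in mesenchymal-like cells. Vtn, vitronectin, was highest in cluster 6 in WT (883 CPM) and in pericyte-like cells in Sod1KO (1105 CPM).

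In the tSC-like class, the comparison is also one between its clusters, as given above for cluster 8 and cluster 12. Of the 14 genes of the ligand list 9 were counted in tSC-like cells, where 1 was at least 2-fold higher and 2 lower in the library labelled Sod1KO, against 4.18% and 4.83% of all genes. Tnc, tenascin-C, a matrix protein of injured nerve, was at 11.1 and 510 CPM (log2 5.52, 5.18 to 5.88). Edil3, an Itgav ligand with the RGD codons shown above, was at 205 and 43.0 CPM (−2.25, −2.41 to −2.10), and Vtn at 22.7 and 10.6 CPM (−1.10). In mSC-like cells 5 of 14 were counted and 0 passed 2-fold, against 0.805% of all genes higher and 0.853% lower. Tnc was there at 40.0 and 75.9 CPM (0.92, 0.69 to 1.16). In macrophage-like cells Thbs1 (8.13 and 49.7 CPM) and Vtn (6.91 and 14.7 CPM) were higher, 2 of 6, against 3.16% of all genes.

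Enzymes that act on osteopontin were highest outside the mSC-like class. Mmp12, a macrophage elastase, was at 379 and 291 CPM and Mmp9 at 61.4 and 50.6 CPM in macrophage-like cells. Mmp3, stromelysin, was at 110 and 126 CPM in mesenchymal-like cells, and the crosslinking enzyme Tgm2 at 256 and 254 CPM in smooth muscle-like cells. Fam20c, the kinase of secreted proteins, was at 35.1 and 67.9 CPM in endoneurial fibroblast-like cells. Prothrombin (F2) and plasminogen (Plg), products of liver, were at most at 0.772 and 1.01 CPM in any ranked class. Fam20c was the only 1 of 8 that could be compared in mSC-like cells (4.83 and 5.21 CPM).

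Hyaluronan, the other ligand of CD44, is made by synthases that were highest outside the Schwann classes. Has1 was at 633 and 410 CPM in mesenchymal-like cells and Has2 at 164 and 141 CPM in endoneurial fibroblast-like cells. Has2 (12.2 and 23.3 CPM) and the hyaluronidase Hyal2 (38 and 47 UMIs) were just within 2-fold in mSC-like cells, with log2 ratios of 0.93 and 0.98. None of 3 genes of the list in mSC-like or 4 in tSC-like cells passed 2-fold, with medians of 0.93 and 0.55 against −0.03 over all genes in both. Of all genes, 0.805% were higher and 0.853% lower in mSC-like cells, and 4.18% and 4.83% in tSC-like cells.

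Among 12 other integrin subunits 7 could be compared in mSC-like cells and 0 passed 2-fold, against 0.805% of all genes higher and 0.853% lower. Itgb8, a further partner of Itgav, was at 448 and 474 CPM there. In tSC-like cells 2 of 8 were higher, Itgb8 (181 and 481 CPM, log2 1.41, 1.32 to 1.51) and Itga7 (6.94 and 20.3 CPM, 1.55), and Itgb7 was lower (38 and 19 UMIs, −1.81), against 4.18% of all genes higher and 4.83% lower. Of 16 adaptors such as talins, kindlins and ERM proteins, 14 were counted in each Schwann class and 0 passed 2-fold. The shares of all genes to set beside this are the same, 0.805% and 0.853% in mSC-like and 4.18% and 4.83% in tSC-like cells.

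Genes known from injured nerve were read last. Of the injury-type genes, of which Olig1, Btc and Ngfr also led cluster 8, 1 of 4 was higher in mSC-like cells (Runx2, 2.98 and 10.7 CPM, log2 1.84), against 0.805% of all genes. In tSC-like cells 6 of 9 were higher, among them Runx2 (6.94 and 329 CPM), against 4.18% of all genes. Btc, Gap43 and Ngfr of this list were also among the markers that named the class, and cluster 8 gave it 57 and 577 cells. The count is thus not independent of how the class was formed. Myelin genes were higher in tSC-like cells as well, 8 of 15, against 4.18% of all genes. Their median log2 ratio was 1.11 against −0.03 over all genes. In mSC-like cells 0 of 15 passed 2-fold, where 0.805% of all genes were higher and 0.853% lower. Of the phagocyte and lysosome genes, Lgals3, galectin-3, was at 2.70 and 54.8 CPM in mSC-like cells (4.34, 3.67 to 5.10) and at 29.0 and 305 CPM in tSC-like cells (3.39, 3.17 to 3.62). Lpl was the other one higher in mSC-like cells, 2 of 10 in all, against 0.805% of all genes. In tSC-like cells 3 of 11 were higher and 3 lower, against 4.18% and 4.83% of all genes, with a median of −0.02. Those lower were Apoe (6800 and 3143 CPM, −1.11), Mertk (176 and 87.1 CPM, −1.01) and Gpnmb (91.6 and 45.4 CPM, −1.01). In macrophage-like cells Gpnmb, a lysosomal glycoprotein, was the only 1 of 14 past 2-fold, lower at 199.6 and 54.7 CPM (−1.87, −2.13 to −1.62), against 1.09% of all genes lower. Of 9 TGF-beta genes 1 was lower in mSC-like cells, Tgfb2 (20.7 and 9.74 CPM, −1.09), against 0.853% of all genes. In tSC-like cells 2 of 9 were higher, Tgfb2 (14.8 and 37.5 CPM, 1.34) and Tgfbi (8.23 and 66.3 CPM, 3.01), against 4.18%, and in macrophage-like cells 2 of 7, against 3.16%.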

How the data were processed

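The data were single-cell 3' transcript counts of GFP+ and GFP- muscle cells of 2 genotypes, 1 library per group. The authors made the deposited values, raw UMI counts per gene and barcode, with Cell Ranger (7.1.0 in the headers of the files, with Seurat 4.30 in the submitters' processing notes, where the methods of the study give another Cell Ranger release and both GRCm39 and GRCm38). Ambient RNA and doublets had not been removed from these counts. Coordinates of the RGD codons are on GRCm39.

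From the counts, cells with over 200 genes and under 10% mitochondrial UMIs were kept, and the highest doublet scores were removed at 0.8% per 1000 barcodes, leaving 4557, 5925, 1638 and 5143 cells (WT GFP+, Sod1KO GFP+, WT GFP-, Sod1KO GFP-). The authors' DecontX, DoubletFinder and Harmony steps were not repeated, so class sizes need not match those of the study. The 2000 most variable genes without the members, 30 principal components and Leiden clustering at resolution 1 gave 35 clusters. A cluster was named from lists of marker genes when at least 3 markers exceeded 20 CPM and 2-fold, and stayed unnamed where another class led its top 10 genes or had at least 50% of its markers past the same limits. These naming limits were set after clusters had been seen. Unnamed clusters held 17.8%, 16.7%, 48.2% and 29.6% of cells in the same order.

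Ratios were called at 2-fold among genes with at least 50 UMIs over both groups, a count of 0 was set to 3 UMIs, and no ratio was given where both were at or under 3. Intervals are exact at 95% (Poisson, Clopper-Pearson, conditional binomial) and cover counting error only. In single mSC-like cells, genes seen in at least 5% of thinned cells of each library were ranked by Pearson r with Spp1. Named genes were the 10 members, the 5 genes most like Spp1 and Cd44, the 10 highest and 5 lowest in that ranking (2 of these are not reported here), and of each pathway list those farthest from 0. Members and lists were chosen with earlier results of these data known. The ratio and correlation code was tested on simulated data. Python 3.11.15, numpy 2.4.6, scipy 1.17.1, scanpy 1.11.5 and leidenalg 0.10.2 were used.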

Additional observations from a re-analysis of the deposited data

How the results depend on the processing

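A stricter cell filter (over 500 genes, under 5% mitochondrial UMIs) brought the Spp1 ratio of mSC-like cells from 1.28 to 0.98, under 2-fold, their share of Spp1 UMIs to 38.2% in WT and 20.9% in Sod1KO, and the Cd44 ratio of tSC-like over mSC-like cells to 3.40 in Sod1KO. Cells were clustered and named anew under that filter, and the cause was not tested. Without doublet removal the shares were 49.3% and 44.4%. With an assumed 5% of ambient RNA subtracted the Sod1KO share was 52.8% and the Cd44 ratios were 8.99 and 5.20. Means of per-cell CPM gave 4.85 for the Cd44 ratio in Sod1KO, and leaving out the 1% of cells with the most Cd44 gave 7.18 and 5.18. The Spp1 ratio was otherwise between 1.22 and 1.34. Asking for 200 UMIs left 6 of the 11 pairs past 2-fold, while other settings gave 8 to 12. The macrophage Spp1 ratio turned to 0.44 without the 1% of cells with the most Spp1. Chosen after seeing the data, it was −0.32 without the top cell of each library, and in the tSC-like cluster with the most WT cells Cd44 was −0.16 and Itga8 2.45, while the largest mSC-like cluster gave 1.29 for Spp1. Of the other called pairs in named classes, Itgb3 in endoneurial fibroblast-like cells stayed past 2-fold in 3 of 7 settings and Itgb5 in macrophage-like cells in 5 of 7. No cells were named endoneurial fibroblast-like under the stricter filter, and none macrophage-like without doublet removal, so those settings could not be read for them. Median-of-ratios scaling moved 0 of 62 ratios by more than its interval. Of the 15 genes ranked with Spp1, 10 to 13 were ranked again under the 5 settings tried. Depth limits Cd44, Itga4, Itga5 and Itga8 in mSC-like cells, at 78 UMIs or fewer. No paired analysis was possible because each group holds 1 library.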
